A study of Rattus norvegicus with 6 samples.

Results

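The genes described here are those for which the deposited table resolves more than 1 transcript at an appreciable level in rat colonic epithelium. Each has at least 2 RefSeq transcripts of 200 bases or more, each with a mean of at least 2 FPKM over the 6 animals (fragment counts corrected for how long the transcript is and how deeply its library was read). The rule found 224 genes with 498 such transcripts, of 12340 genes with a symbol, 385 of which have 2 or more transcripts at any level. 4 genes are left out by the rule, 3 of them past the threshold. The members were chosen by their mean level in all 6 animals, so that level is no finding. What is described is the share, the percentage of a gene's summed FPKM that each of its transcripts takes within an animal.

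All 6 animals were adult male Wistar rats whose pineal gland, the main source of circulating melatonin, had been removed. 3 of them (vehicle 1 to 3) were injected intraperitoneally with 2.5% ethanol in phosphate-buffered saline and 3 (melatonin 4 to 6) with 1 mg/kg melatonin. The injection was given at the start of subjective night and the inner epithelial layer of the colon was taken 4 h later. RNA was read from each animal separately, so p-values below measure the spread between animals.

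Most mammalian genes give more than 1 mRNA. Alternative promoters, alternative splicing and alternative polyadenylation change the ends or the internal exons, and the proteins made can differ in location, partners or activity, or can be the same where the changes lie in untranslated parts. In an intestinal epithelium such choices are known for junction, cytoskeleton and transcription factor genes. With short reads, only fragments that cover a differing part tell 2 transcripts of a gene apart, and RSEM, a tool named in the submitters' processing notes, divides the remaining fragments among them by estimation.

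Between 3310000 and 3540000 mapped fragments per library were inferred from the size of the smallest FPKM steps in short transcripts. This is the best fit within a preset range, and the true depth may be a multiple of it. Every number of estimated reads given here is therefore approximate. It also includes fragments shared between transcripts and divided by estimation. A member transcript had a median of 118 estimated reads per animal, with means from 3.8 to 6610. Of the 498 member transcripts, 111, in 87 genes, were listed at 0 in at least 1 animal, and for 34 members at least 1 transcript reached a mean of 2 FPKM in only 1 of the treatment groups. The tissue label was checked against markers: colonocyte genes summed to 11000 to 11600 FPKM in vehicle and 10200 to 11700 FPKM in melatonin animals. Smooth muscle genes summed to 56.1 to 63.6 FPKM and 52.9 to 71.9 FPKM. Smtn (smoothelin) gave most of that, at 41.88 to 55.43 FPKM, while Acta2 and Actg2, the smooth muscle actins, were at 0 to 0.23 FPKM. Macrophage genes summed to 97.0 to 158 FPKM in vehicle and 108 to 142 FPKM in melatonin animals, most of it Cd14 at 91.88 to 150.15 FPKM. Genes of T and NK cells summed to 6.43 to 13.7 FPKM and 12.5 to 26.1 FPKM, highest in melatonin 6, and fibroblast genes to at most 4.02 FPKM in any animal. In such bulk tissue, fewer cells of a type and less RNA per cell cannot be told apart.

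For 7 members no share could be measured, because their transcripts past the threshold held identical values in every animal. These were Jund (an AP-1 transcription factor), Cebpa and Cebpb (C/EBP transcription factors), Bag1 (a chaperone regulator), Igf2bp2 (an mRNA-binding protein), Rnaseh1 (a nuclease for RNA in DNA hybrids) and Oaz1 (ornithine decarboxylase antizyme). Cebpa, for example, was listed 4 times, each entry 2673 bases long and each at 25.0% of the gene in all 6 animals. The remaining 217 members had distinct values, and the counts below are over these.

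One transcript usually dominated. The leading transcript, the one with the highest mean, took a median of 71.2% of the gene's FPKM, from 34.8% to 99.9%. It held 90% or more in 26 genes, between 50% and 90% in 174 and less than 50% in 17. The rule asks at least 2 FPKM of a second transcript, so it limits the leading share, most in genes with a low sum. The leading transcript was longer than the runner-up in 106 genes, shorter in 109 and equally long in 2, so that the choice of leader had no common direction in length.

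Many genes kept the same leader and many did not. In 124 of the 217 genes the same transcript ranked highest in all 6 animals, in 82 genes 2 transcripts alternated, and in 11 genes 3 or more took the first place in at least 1 animal. The SD of the leading share over the 6 animals had a median of 9.83 percentage points, with a range from 0.0832 to 51.6. It was below 5 points in 48 genes and above 20 points in 45.

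The spread of the shares went with the reads behind them. Among the 73 genes with the most estimated reads (519 to 6970 per animal) the median SD of the leading share was 5.21 points and 15 genes changed leader. Among the 72 genes with the fewest (25.1 to 211 reads) it was 16.1 points and 45 genes changed leader. Across the 217 genes, Spearman's rho between estimated reads and this SD was -0.59, a description only, since all genes share the same 6 libraries.

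Genes whose 2 leading transcripts were close in length also had more variable shares. The sequences of the transcripts were not compared. In the 60 genes whose 2 leading transcripts differed in length by under 50 bases the median SD was 13.4 points, in the 92 genes with a difference of 50 to under 300 bases 11.2 points, and in the 65 genes with 300 bases or more 6.56 points. The genes of these 3 classes had similar depth, with medians of 344, 352 and 359 estimated reads. A change of leader was seen in 46.7%, 50% and 29.2% of them. Where the table gave both leading transcripts the same best protein match (68 genes) the median SD was 12.9 points, against 9.51 points where the matches differed (148 genes). The estimated reads of these 2 sets were not compared.

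**Figure D1:**
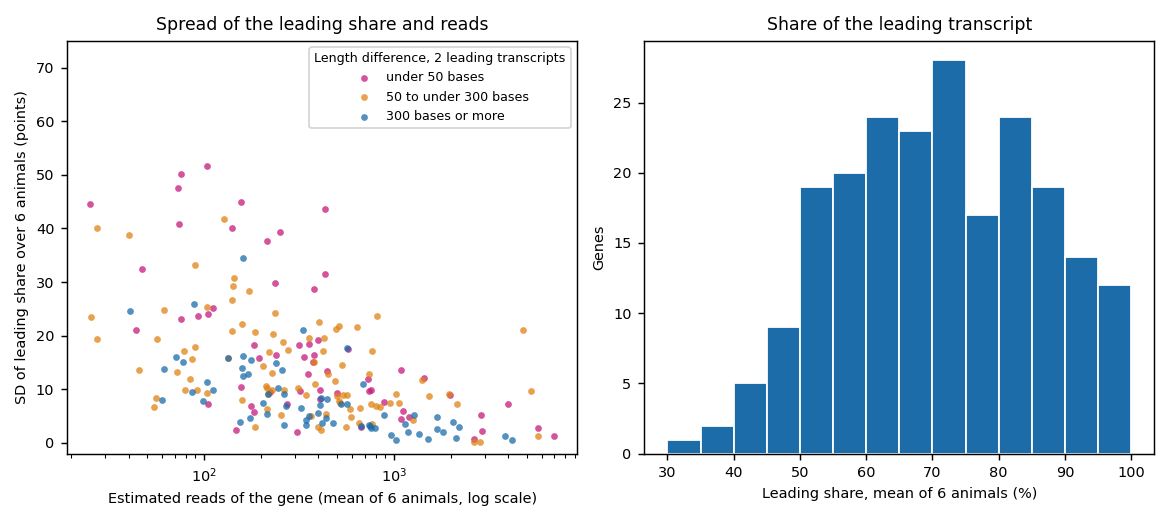
Left, for each of 217 genes, the SD over 6 animals of the leading transcript's share (percentage points) against the gene's mean estimated reads (log scale), coloured by the length difference of the 2 leading transcripts; right, the number of genes by mean leading share in bins of 5 points. The spread falls from a median of 16.1 points in the genes with the fewest reads to 5.21 points in those with the most.

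The sum over a gene was far steadier than its transcripts. The within-group SD on the log2 scale had a median of 0.166 for the summed FPKM and 0.512 for the mean over a gene's transcripts. The transcripts varied more than the sum in 214 of 217 genes. A sum varies less than its parts unless they move together, and low transcripts counted as much as the leader in this mean. These values are therefore a description and largely follow from how they were formed. When 1 of the leading pair was high in an animal the other was usually low: their deviations from the group means were negatively correlated in 154 genes, with a median r of -0.52 across the 6 animals. The correlation was under -0.5 in 111 genes and over 0.5 in 31.

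Of the members with the highest summed FPKM, 5 had a leader that took over 90% in every animal. Under the rule such a share is possible only where the sum is high. Crip1, a small LIM-domain protein abundant in the gut, was the most highly expressed: its 428-base transcript NM_001244867 stood at 1793.13, 1853.71 and 2047.28 FPKM in the vehicle animals and at 2109.74, 1989.86 and 1728.08 FPKM in the melatonin animals. That was between 99.7% and 99.9% of the gene, and the 480-base NM_001134933 gave 1.81 to 5.39 FPKM. No other member was so one-sided.

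Aldoa, a glycolytic aldolase, had 3 transcripts past the threshold, and NM_012495 took 92.4% to 96.4% of the gene. Its share was 94.6% ± 2.06 (SD, n = 3) in vehicle and 94.8% ± 0.598 in melatonin animals. Spint2, an inhibitor of membrane serine proteases, was led by NM_199087 at 93.5% to 96.8%. Slc25a3, the mitochondrial phosphate carrier, was led by NM_139100 at 97.5% to 99.3%, although its 2 transcripts differ by only 3 bases in length (1388 and 1391).

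Bsg (basigin, a partner of monocarboxylate transporters) was led by the 1333-base NM_012783 with 96.8%, 96.9% and 97.1% in vehicle animals and 97.1%, 97.2% and 98.3% in melatonin animals. The 1681-base NM_001109882 made up the rest, at 16.83 to 28.78 FPKM. The groups touched at 97.1% when rounded and did not overlap in the unrounded values, with a fitted log2 ratio of 0.37 ± 0.37 (SE, adjusted p = 0.91, limma with Benjamini-Hochberg adjustment).

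Fau, which encodes a ubiquitin-like protein fused to ribosomal protein S30, differed from the other highly expressed members. NM_001012739 (550 bases) took 65.8%, 72.0% and 72.7% in vehicle and 67.7%, 75.7% and 77.4% in melatonin animals, and NM_001160231 (545 bases) took 19.6% to 30%. The remaining NM_001160232 held 1.9% to 5.54%. The order of the 3 was the same in every animal.

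**Figure D2:**
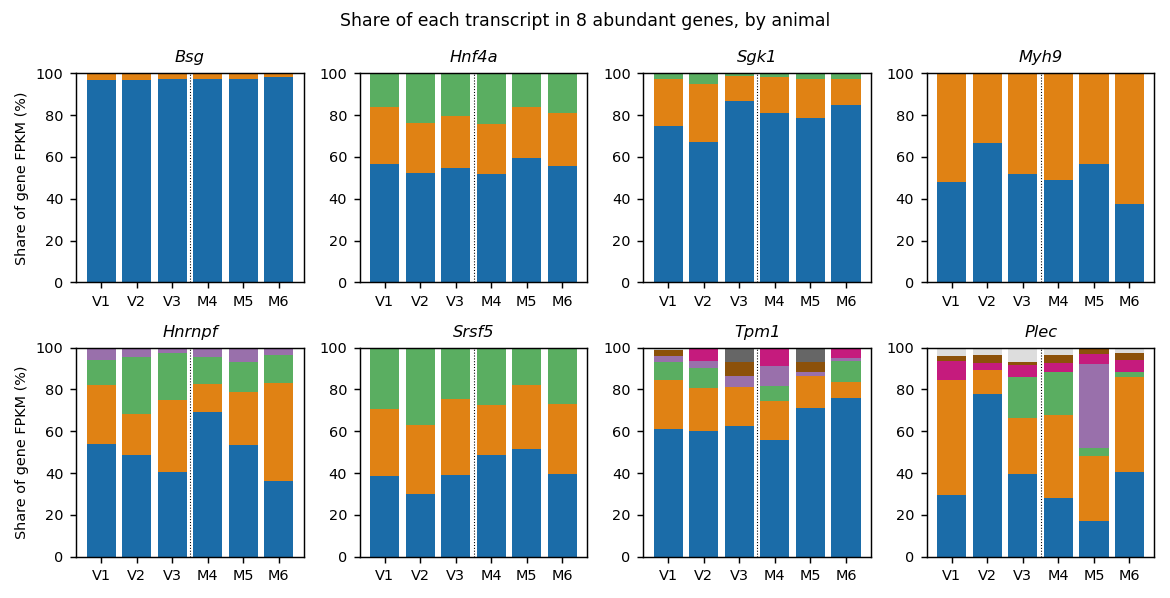
Share of each transcript in its gene's summed FPKM (y axis, percent) in vehicle animals 1 to 3 (V1 to V3) and melatonin animals 4 to 6 (M4 to M6), left and right of the dotted line, for 8 genes. Each colour is 1 transcript, blue the one with the highest mean, and grey the transcripts under 2 FPKM; Bsg and Hnf4a look alike in all animals, and the leader of Plec changes between animals.

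A grouping by role, written after the members were known, gave 6 classes, which leave most of the 224 members out. The median leading share was lowest in the 17 RNA-processing members with distinct values (63.4%, same leader in 7) and highest in the 21 kinases and phosphatases (76.6%, same leader in 16). The 22 transcription factors and coregulators had a median of 66.3% with 9 stable leaders, the 18 cytoskeleton and motor genes 70.3% with 10, the 16 metabolic enzymes 75% with 8 and the 8 carriers, channels and pumps 75% with 6. These classes were not tested against each other, and their estimated reads were not compared. Members named below as examples of a role, beyond the highly expressed, the most variable and those with 3 or more transcripts, were picked after their values were seen.

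The genes described next themselves act in pre-mRNA processing. Their output ranged from an almost even split, as in Sf1 and Ptbp1, to a steady leader, as in Hnrnpa3 and Hnrnpl. Srsf5, a serine- and arginine-rich splicing factor, had 3 transcripts of 1497 to 1626 bases. NM_019257 took 38.6%, 30.2% and 39.3% in vehicle and 48.6%, 51.3% and 39.4% in melatonin animals, where all 3 melatonin animals lay above the vehicle animals, the lowest by 0.1 points when rounded. Its fitted log2 ratio was 0.62 ± 0.38 (SE, limma adjusted p = 0.876).

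Hnrnpf, an RNA-binding protein of G-rich sequences, had 4 transcripts past the threshold. NM_001037286 took 53.8%, 48.4% and 40.4% in vehicle animals and 69.3%, 53.6% and 36.2% in melatonin animals, and NM_001037287 took 28.1%, 19.7% and 34.6%, then 13.4%, 25.0% and 46.8%. The latter overtook the former only in melatonin 6, and the groups overlapped for each.

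Ptbp1, the polypyrimidine tract-binding repressor of exon use, was split between isoform a (NM_001271057, 2905 bases) and isoform b (NM_022516, 2827 bases), named from the table's protein matches. Isoform a held 52.2%, 45.9% and 53.8% in vehicle and 41.8%, 63.5% and 62.7% in melatonin animals. It led in 4 of 6 animals, 2 in each group.

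Sf1, which recognises the intron branch point, stood near parity: NM_001110793 held 57.4%, 54.7% and 44.2% in vehicle and 53.7%, 54.7% and 46.9% in melatonin animals. Hnrnpa3 was steadier, with NM_001111295 (1154 bases) at 61.3% to 68.4% although its long partner NM_001111294 spans 5280 bases. Hnrnpl, a binder of CA-rich RNA, was led by NM_032619 at 69.1%, 62.6% and 68.2% in vehicle and 72.7%, 74.6% and 71.2% in melatonin animals. The 2 groups of Hnrnpl did not overlap, and the fitted log2 ratio was 0.42 ± 0.35 (SE, limma adjusted p = 0.91).

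Hnrnpd (AUF1, a binder of AU-rich elements) had 4 transcripts past the threshold. In vehicle animals its isoforms stood close together between animals: NM_001082540 at 39.7%, 36.7% and 33.8%, and NM_024404 at 28%, 26.0% and 32.5%. In melatonin animals NM_001082540 stood at 23.6%, 15.0% and 27.2%, all below the vehicle animals, and NM_024404 at 44.0%, 14.1% and 64.0%. The fitted log2 ratio of NM_001082540 was -1.02 ± 0.41 (SE, limma adjusted p = 0.804).

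The transcription factor Hnf4a, which sustains intestinal epithelial identity, had 3 transcripts of 4416 to 4456 bases. NM_022180 took 56.7%, 52.3% and 54.8% in vehicle and 51.7%, 59.3% and 55.6% in melatonin animals, NM_001270933 took 23.9% to 27.4%, and NM_001270931 took 15.9% to 24.4%. NM_022180 led in every animal, and its SD over the 6 animals was 2.8 points. Its 2810.8 to 3503.5 estimated reads include fragments that do not tell the transcripts apart.

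Among the other regulators, Dbp, a clock-controlled activator, was led by NM_012543 at 68.2%, 68.5% and 83.9% in vehicle and 91.0%, 61.9% and 78.3% in melatonin animals. Pparg, a lipid-sensing nuclear receptor, alternated: NM_001145367 held 41.5% to 65.7%, and led in 3 of 6 animals. Creb1, the cAMP-responsive activator, was led by NM_031017 at 73.0% to 91.3%, on only 34.0 to 58.3 estimated reads. Zmynd11, a reader of modified chromatin, divided its output among 4 transcripts, none of which passed 64.5% in any animal.

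Of the cytoskeletal members, Myh9 (non-muscle myosin heavy chain IIA) was split close to evenly by transcripts of 7208 and 7421 bases. NM_013194 stood at 98.01, 134.26 and 113.83 FPKM in vehicle and at 101.71, 116.1 and 80.94 FPKM in melatonin animals, or 48.0%, 66.6% and 51.8%, and 49.2%, 56.7% and 37.5%. It was the leader in 3 of 6 animals. Each transcript was given at least 1644.1 estimated reads in each animal, which include fragments shared by both.

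Plec, the giant cytolinker that ties intermediate filaments to hemidesmosomes, had 6 transcripts past the threshold, of 14802 to 15278 bases. NM_001164305 held 29.7%, 78.0% and 39.5% in vehicle and 28.3%, 17.1% and 40.3% in melatonin animals. NM_001164303 was at 36.7 FPKM, or 40.3% of the gene, in melatonin 5 and at 0.02 to 0.03 FPKM in each of the other 5 animals. A single animal thus carried this transcript past the threshold, on 1921.5 estimated reads against about 1 elsewhere.

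Tpm1 and Tpm3, the tropomyosins that coat actin filaments, were more ordered. Tpm1 had the most transcripts past the threshold, 7, yet NM_001034074 led in all animals with 61%, 60.1% and 62.7% in vehicle and 55.6%, 71.1% and 75.7% in melatonin animals. Its 4 short transcripts, of 1182 to 1261 bases, were each listed at 0 in 2 to 4 animals and held at most 10%. Tpm3 was led by NM_173111 at 93.8% to 95.8%.

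Septin9, a filament-forming GTPase, was led by NM_031837 in 5 animals, at 32.1%, 56.5% and 53.6% in vehicle and 76.4%, 77.9% and 45.6% in melatonin animals. Cast (calpastatin, the calpain inhibitor) had NM_001033715 at 51.5%, 41.9% and 100% in vehicle and 67.3%, 70.8% and 35.0% in melatonin animals, while NM_053295 and NM_001033716 were listed at 0 in 1 and 3 animals. Prom1, a protein of membrane protrusions, was split between NM_001110137 (46.4% to 71.7%) and NM_021751 (28.3% to 53.6%). Ceacam1, an adhesion molecule of the apical surface, was led by NM_001033862 at 55.2% to 78.3%, and its other 2 transcripts were each listed at 0 in 2 animals.

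Atp2a2 encodes the calcium pump of the endoplasmic reticulum. NM_001110823, matched to the widely expressed isoform b, took 84.2%, 81.0% and 80.4% in vehicle and 81.2%, 85.7% and 82.9% in melatonin animals. The non-coding entry NR_027839 held most of the rest, and NM_001110139, matched to the isoform a known from heart and slow muscle, was at 0.59 FPKM in vehicle 1 and listed at 0 elsewhere.

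Sgk1, the aldosterone- and glucocorticoid-induced kinase that promotes sodium absorption, had 3 transcripts. NM_019232 stood at 353.25, 341.14 and 508.5 FPKM in vehicle and at 477.48, 357.97 and 176.77 FPKM in melatonin animals, with shares of 75%, 66.9% and 86.7%, and 81.1%, 78.7% and 84.9%. Melatonin 6 had the lowest level but not an unusual share. Wnk1, a kinase upstream of chloride cotransporters, was led by the 8973-base NM_053794 at 74.3% to 86.9%, with the 10497-base NM_001002823 at 13.1% to 25.7%.

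Vegfa, the angiogenic growth factor, had 6 entries past the threshold, among them 2 identical pairs. NM_001110336 led in all animals at 47.4%, 42.8% and 41.8% in vehicle and 42.6%, 49.4% and 46.8% in melatonin animals. In Cdk16, a cyclin-dependent kinase, the 1791-base NM_001004132 held 77.7%, 76.0% and 75.1% in vehicle and 78.5%, 74.8% and 77.6% in melatonin animals, an SD of 1.52 points over all 6.

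Of the other members with 3 or more transcripts, Ppm1b (a protein phosphatase), Psap (the saposin precursor), Cuta, Ehbp1l1, Synj2 (an inositol phosphatase), Tor1aip2 and Tmem176b were led by the same transcript in all animals. The leader's lowest and highest shares were 52.8% and 62.6% in Ppm1b and 76.8% and 91.7% in Psap. Dbnl, Dcaf11, Nat1 (an arylamine N-acetyltransferase) and Park7 (DJ-1, a redox-sensitive protein) changed leader between animals. In Dbnl the share of NM_001277212 ran from 31.9% to 76.1%. In Nat1 the share of NM_001037316 ran from 31.4% in vehicle 1 to 88.7% in melatonin 6.

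Of the metabolic members, Acly, the ATP citrate lyase that supplies acetyl-CoA for lipid synthesis, was led by NM_016987 in all animals. It held 68.8%, 55.4% and 85% in vehicle and 85.9%, 64.7% and 78.3% in melatonin animals. Ugt1a6, a glucuronosyltransferase, was led by NM_057105 at 71.3%, 87.3% and 97.1% and then 92.6%, 86% and 91.4%, so that vehicle 1 was the lowest of all.

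Odc1, the first enzyme of polyamine synthesis, stood near parity: NM_012615 held 58.2%, 35.1% and 50.8% in vehicle and 50.4%, 41.5% and 71.6% in melatonin animals. The groups overlapped.

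Ndrg2, a stress-responsive protein of differentiated cells, was among the most highly expressed members whose leader differed between animals. NM_001270864 held 48.3%, 45.8% and 57.3% in vehicle and 54.3%, 78.5% and 48.9% in melatonin animals, and NM_001270863 led in vehicle 1, vehicle 2 and melatonin 6. Bcl2l1, which encodes the BCL-XL family of apoptosis regulators, was led by NM_001033670 at 64.9%, 45.7% and 91.9% and then 82.9%, 52.6% and 92.7%. Within each group of Bcl2l1 the animals differed by more than 40 points.

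Among members whose transcripts differ more in length, Ank3 (ankyrin-G, a scaffold of the lateral membrane) was led by the 7401-base NM_031805 at 89.9%, 88.4% and 93% in vehicle and 88.4%, 86% and 83.1% in melatonin animals. Klc1, a kinesin light chain, was led by the 1917-base NM_001081973 in 5 animals and by the 2386-base NM_001081974 in vehicle 2, where it held 51.6%.

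In 14 members the leading transcript held 90% or more in one animal and 10% or less in another. These were Ddah2, Eloc, Grk6, Hip1r, Maged2, Mgat4a, Nr1i3, Pfkfb2, Smndc1, Snx11, Ssna1, Thumpd3, Timm9 and Tmem220. In each of them at least 1 transcript was listed at 0 in at least 1 animal.

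Ssna1, a microtubule-associated centrosomal protein, had the largest spread of all. Its coding NM_001303617 (929 bases) was at 32.54, 28.67 and 42.7 FPKM in vehicle animals and 32.4 FPKM in melatonin 4, and was listed at 0 in melatonin 5 and 6. The non-coding NR_130647 (918 bases) was at 34.39 and 30.05 FPKM in those 2 and listed at 0 in the other 4. Each animal thus had only 1 of the 2 above 0, and that one lay between 28.67 and 42.7 FPKM.

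Thumpd3, a tRNA methyltransferase, had 3 transcripts between 1976 and 2002 bases. NM_001170548 was at 18.85 and 18.56 FPKM in melatonin 4 and 5 and listed at 0 in the other 4 animals. NM_001170547 was at 21.32, 18.27 and 12.28 FPKM in vehicle 1, vehicle 3 and melatonin 6, and NM_001170546 alone was present in vehicle 2, at 25.43 FPKM.

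Nr1i3, the xenobiotic receptor CAR, was led by NM_022941 (1610 bases) in vehicle 1, melatonin 4 and melatonin 6 with 100%, where NM_001270839 (1606 bases) was listed at 0. The latter held 100% in melatonin 5. Mgat4a, a glycan-branching enzyme, had NM_001012225 at 25.9%, 100% and 47.3% in vehicle and 100%, 1.6% and 100% in melatonin animals, on up to 499.9 estimated reads.

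Snx11, a sorting nexin, had NM_001012012 at 100%, 100% and 30.9% in vehicle and 68.0%, 0.0% and 24.6% in melatonin animals. Grk6, a G protein-coupled receptor kinase, had NM_031657 at 100%, 90% and 89.7% in vehicle and 3.72%, 55.8% and 100% in melatonin animals. In each of these genes the groups overlapped or were divided within a treatment.

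**Figure D3:**
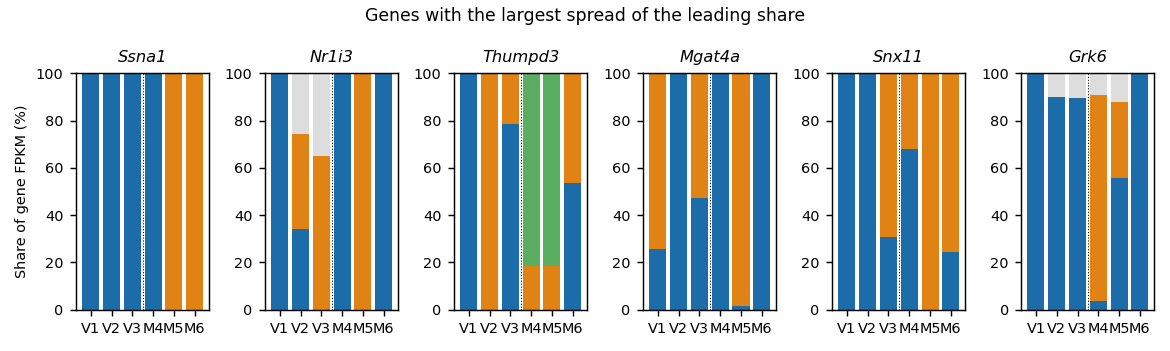
Share of each transcript in its gene's summed FPKM (y axis, percent) in vehicle animals 1 to 3 (V1 to V3) and melatonin animals 4 to 6 (M4 to M6), for the 6 genes with the largest SD of the leading share among those with 5 FPKM or more for both leading transcripts. Blue is the leading transcript, orange and green the next and grey those under 2 FPKM; Ssna1 is all blue in 4 animals and all orange in melatonin 5 and 6.

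The comparison of melatonin with vehicle asks whether a single dose altered which transcript of a gene was present 4 h later. No member passed the test. The ratio of a transcript to the rest of its gene, log2 of (FPKM + 1) over (FPKM of the others + 1), was formed in each animal and tested with limma over 371 transcripts of 254 genes. None passed a Benjamini-Hochberg adjusted p of 0.05 in either direction (0.0% of those tested, and 0 of 328 member transcripts), and the smallest adjusted p was 0.312 in all and 0.678 among members. At an unadjusted p under 0.05 there were 14 member transcripts of 328 (4.27%), against 5.12% of all tested. Of these, 8 were higher (2.96% of all tested were) and 6 lower (2.16% of all tested were).

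The shares themselves gave a similar count. Groups did not overlap for 32 of 328 member transcripts (9.76%), against 10.2% of all tested. Melatonin animals lay above in 19 (5.93% of all tested) and below in 13 (4.31% of all tested). The leading share differed between the group means by a median of 0.148 points, positive in 112 genes and negative in 105. A member's log2 ratio had a median SE of 0.66, which sets the size of difference that 3 animals a group could resolve. 3 animals against 3 cannot give an exact permutation p below 0.1.

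**Figure D4:**
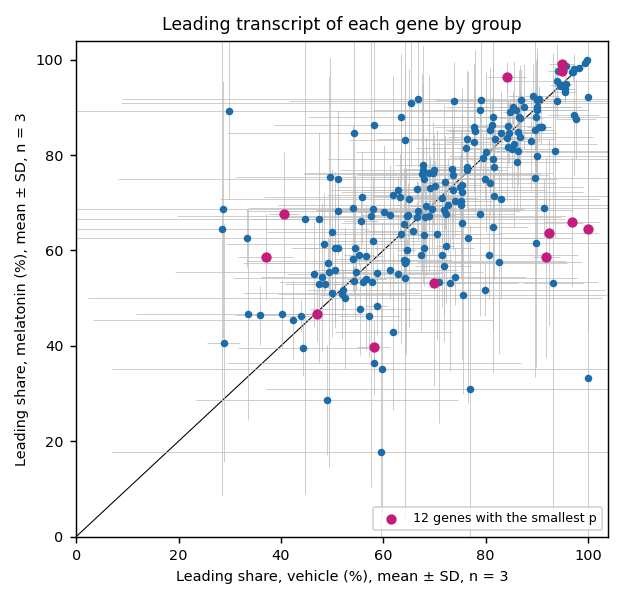
Mean share of the leading transcript in melatonin animals (y axis, percent, n = 3) against vehicle animals (x axis, percent, n = 3) for 217 genes, with SD bars in grey and the line of equality. Pink marks the 12 members with the smallest p of the transcript ratio; points lie on both sides of the line, 112 above and 105 below.

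The 12 members with the smallest unadjusted p, from 0.00548 to 0.0457 in limma and all short of the threshold after adjustment, follow with the values of 10 of them. They were chosen by their difference between the groups, so separated shares among them are no separate support. Tank, an adaptor of TRAF and TBK1 signalling, had NM_145788 (2077 bases) at 11.5, 12.1 and 15.78 FPKM in vehicle animals, where the 2066-base NM_001164073 was listed at 0. In melatonin animals they were at 7.17, 7.31 and 10.27 FPKM and at 7.89, 5.4 and 1.35 FPKM. The share of NM_145788 was thus 100% in all vehicle animals and 47.6%, 57.5% and 88.4% after melatonin, without overlap. The fitted log2 ratio of -2.97 ± 0.7 (SE, limma adjusted p = 0.678) depends on the added 1 FPKM, and no fold is given against a group listed at 0. NM_001164073 passed the 2 FPKM threshold through the melatonin animals alone, so the separation of the groups follows in part from the rule.

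Taf13, a subunit of the general transcription factor TFIID, had a like pattern. The coding NM_001303616 took 100%, 90.8% and 100% in vehicle and 60.4%, 56.1% and 81.6% in melatonin animals, and the non-coding NR_130639 the rest, at 4.76, 5.42 and 2.27 FPKM after melatonin. The groups did not overlap, and the log2 ratio was -2.5 ± 0.63 (SE, limma adjusted p = 0.717). NR_130639 rested on 0.0 to 23.6 estimated reads per animal and also passed the threshold through the melatonin animals alone.

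Tank and Taf13 were the only members called by any alternative fitted to all 6 animals. In both, the minor transcript passed the threshold through the melatonin animals alone, so these calls are no independent support. With limma's diffSplice, a test of unequal change among the transcripts of a gene, both had an adjusted p of 0.0366. The same test on estimated reads (limma voom) called no gene. These calls therefore depended on the test.

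Pde2a, a cGMP-stimulated phosphodiesterase that lowers cyclic nucleotides, had 2 transcripts matched to different isoforms. NM_031079, matched to PDE2A2, was at 23.48, 35.87 and 25.22 FPKM in vehicle and at 22.19, 17.86 and 9.03 FPKM in melatonin animals. NM_001270604, matched to PDE2A1, was at 1.75, 4.47 and 1.66 FPKM and at 6.71, 10.23 and 16.37 FPKM. The share of NM_031079 was 91.9% ± 2.64 (SD, n = 3) in vehicle and 58.6% ± 21.1 in melatonin animals, with no overlap and a log2 ratio of -2.55 ± 0.68 (SE, limma adjusted p = 0.717).

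Mff, the mitochondrial receptor for the fission GTPase, had 3 transcripts. NM_001271284 held 55.5%, 61.8% and 56.9% in vehicle and 41.9%, 44.1% and 33.3% in melatonin animals, while the shorter NM_001039015 held 15.9%, 10.4% and 16.2%, then 40%, 24.7% and 55.4%. Neither overlapped between groups, with limma adjusted p = 0.804 for each. The groups overlapped for the remaining transcript, NM_001276401.

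Sptssb, a small subunit of serine palmitoyltransferase that starts sphingolipid synthesis, had opposite leaders in the groups. NM_001271299 held 38.9%, 38.9% and 43.9% in vehicle and 63.2%, 57.5% and 82.3% in melatonin animals. It was the minor transcript in each vehicle animal and the major one in each melatonin animal. Both transcripts share the same protein match, and the log2 ratio was 1.57 ± 0.52 (SE, limma adjusted p = 0.804).

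In 2 further genes a minor transcript had a lower share in every melatonin animal than in any vehicle animal. In Dync1i2, a dynein intermediate chain, the 2743-base NM_001270625 held 14.1%, 13.5% and 15.9% in vehicle and 6.2%, 0.0% and 4.88% in melatonin animals. NM_001270625 passed the threshold through the vehicle animals alone. In Sqstm1 (p62, an autophagy receptor) NM_181550 held 5.88%, 3.91% and 5.5% and then 2.84%, 2.43% and 1.63%. The limma adjusted p was 0.804 for each, on at most 84.4 estimated reads for the minor transcript of Dync1i2.

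Grtp1, Zfp384 and Snap25 also had an adjusted p of 0.804 in limma. Grtp1, a Rab GTPase-activating protein, had NM_001170477 at 100%, 81.3% and 95.7% in vehicle and 85.6%, 58.2% and 47.5% in melatonin animals, which overlapped. Zfp384, a zinc finger factor, had NM_133429 at 43.4%, 28.7% and 27.5% and then 50.7%, 53.3% and 49.3%. At least 1 of the 3 Zfp384 transcripts past the threshold reached a mean of 2 FPKM in only 1 of the treatment groups. Snap25, a SNARE of secretory cells, had NM_001270576 at 31.8%, 36.5% and 42.6% and then 61.2%, 48.6% and 66.0%, on 14 to 29.6 estimated reads.

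**Figure D5:**
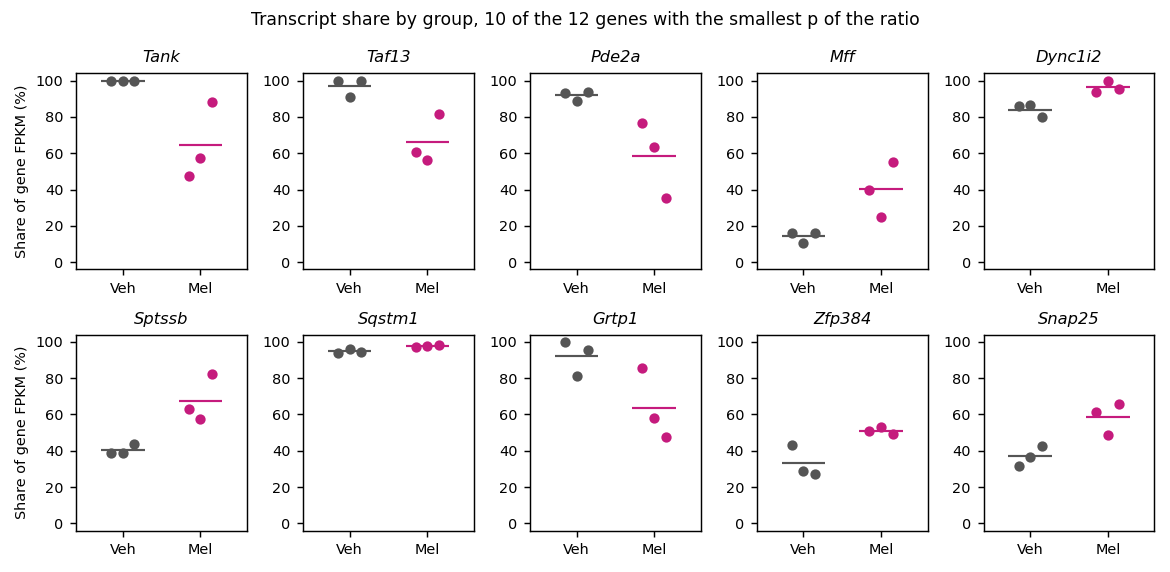
Share of 1 transcript in its gene's summed FPKM (y axis, percent) for 10 of the 12 members with the smallest p of the transcript ratio, 1 point per animal and a line at the group mean (Veh, vehicle; Mel, melatonin; n = 3 each). The transcript plotted is the one with the smallest p, and no gene passed the adjusted threshold. In 9 of the genes the groups do not overlap, which follows in part from this choice. Over all transcripts tested, 10.2% had groups that do not overlap.

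Leaving out 1 animal at a time gave 1 call in 3 of the 6 fits, in genes whose transcripts then stood at or near 0 in every animal of a group. Ssna1 was called without melatonin 4, Thumpd3 without melatonin 6 and Maged2 (a melanoma-antigen family protein) without vehicle 3, and none of these was called with all animals. For Maged2, NM_001271110 was at 6.73 and 10.32 FPKM in vehicle 1 and 2 and listed at 0 in the other 4 animals. In each of Ssna1, Thumpd3 and Maged2 at least 1 transcript passed the threshold through 1 treatment group alone, so these calls are no independent support.

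Some highly expressed members had small, even differences, and they are named here after their values were seen. Rps27a, a ubiquitin and ribosomal protein fusion, had NM_031113 at 92.5%, 91.3% and 89.0% in vehicle and 87.0%, 86.0% and 85.1% in melatonin animals. Gpx4, the lipid peroxide-reducing enzyme, had NM_017165 at 95.8%, 94.8% and 91.9% and then 96.8%, 98.8% and 97.5%. Neither gene's groups overlapped, with limma adjusted p of 0.804 for both.

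Hyou1, an endoplasmic reticulum chaperone, was also chosen after its values were seen. NM_001034028 held 89.7%, 91.4% and 91.3% in vehicle and 89.9%, 85.0% and 82.8% in melatonin animals, so that melatonin 5 and 6 were low and the treatment groups overlapped. Melatonin 5 and 6 were also the animals with high interferon-response genes, 13 genes summing to 331 and 436 FPKM there and to 110 to 139 FPKM in the other 4; their part in this share was not tested.

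The level of each transcript was tested separately, with limma on log2(FPKM + 1) over 10459 transcripts. None passed an adjusted p of 0.05 (0.0% of those tested, 0 of 517 transcripts of members), and the smallest was 0.0594 in all and 0.832 among members. Unadjusted p-values under 0.05 were more frequent in members, 58 of 517 (11.2%), than in all transcripts (3.89%). Of these, 22 were higher (1.93% of all transcripts were) and 36 lower (1.96% of all transcripts were). The 58 came from 50 genes, since linked transcripts of 1 gene are counted apart. In the ratio fit the percentages were 4.27% of member transcripts and 5.12% of all. Without melatonin 4, 1121 of all transcripts (10.7%) and 80 of the members' 517 (15.5%) had an unadjusted p under 0.05. Member transcripts also varied more within groups, with a median SD of 0.447 on the log2 scale against 0.21 for the 9942 others at similar levels (medians of 13.7 and 15.8 FPKM); the part of this in the count was not tested.

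Among the named members, the smallest adjusted p of a level was 0.832, for the Sptssb transcript NM_001271301. It was at 19.27, 20.17 and 16.82 FPKM in vehicle and at 8.79, 10.1 and 5.75 FPKM in melatonin animals, with a log2 difference of -1.13 ± 0.21 (SE). Slc4a7, a sodium bicarbonate cotransporter named after its values were seen, had the same adjusted p, with NM_001270860 at 7.16, 13.91 and 9.04 FPKM in vehicle and 20.7, 28.02 and 30.78 FPKM in melatonin animals. Its other transcript, NM_058211, was at 14.33, 0.0 and 35.25 FPKM and then 14.69, 7.14 and 4.84 FPKM.

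The levels of the genes that carry out pre-mRNA processing were compared as well. Of 74 such genes, splicing factors, their kinases and factors of 3′ end formation, 68 were in the table with 80 tested transcripts. None passed the adjusted threshold, 1 was higher and 2 were lower at an unadjusted p under 0.05, and the median log2 difference was -0.03, against -0.02 over all transcripts. The 3 were Cpsf3, the endonuclease of 3′ end cleavage (0.67 ± 0.16, SE), and the members Hnrnpd (NM_001082540, -0.68 ± 0.26) and Hnrnpl (NM_001134760, -0.3 ± 0.11), each with a limma adjusted p of 0.972. Their summed level was 4230 to 4350 FPKM in vehicle and 4070 to 4420 FPKM in melatonin animals.

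At the edge of the rule, the second transcripts of Cdk12 (a transcription elongation kinase) and Slc15a1 (the peptide transporter PEPT1) lay just inside with a mean of 2.04 FPKM each. Those of Terf2 (a telomere protein) and Camk2b (a calmodulin-dependent kinase) lay just outside, at 1.92 and 1.88 FPKM. In Cdk12 the leading NM_001033867 held 86.1% to 96.3%, and in Slc15a1 NM_057121 held 63.7% to 100%, with the 626-base NM_001079838 on at most 8.8 estimated reads.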

How the data were processed

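Polyadenylated RNA of 6 animals, 3 per group, was sequenced, and per the labels' protocols RNA integrity was 9.0 to 9.7. The authors deposited FPKM values for 13647 RefSeq transcripts; the tools in the submitters' processing notes are RSEM, Bowtie2 and BWA 0.7.10-r789, with rn6 as the build, and the annotation release is not given in the sources used here. Transcripts were matched by accession to RefSeq gene symbols (GRCr8, names only; 12883 matched). The members, lists and tests were chosen with earlier results of these data known.

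A share is a transcript's FPKM over the sum of its gene's transcripts of 200 bases or more. Transcripts of a gene with identical length and values in all animals were joined before the ratio was fitted, which the planned design did not specify. The ratio of every gene with at least 2 transcripts of mean FPKM 1 or more, and the level of every such transcript, were tested two-sided by limma (version 3.58.1, under R 4.3.3; eBayes with its trend option, pseudocount 1, Benjamini-Hochberg adjustment, threshold 0.05), and log2 differences on this scale understate the change of low transcripts. The fit was tested on simulated data. Those data were drawn for each transcript independently, whereas the measured transcripts of a gene were linked, so the test does not cover that feature. Reads were estimated from the steps between low values: with 35 bases taken off each length, 86.8% to 94.0% of low values came within 0.1 of whole reads. The depth with the largest such percentage within a preset range was taken, and depths outside that range were not tried. Intervals for counting error were not formed, since reads shared between transcripts are divided by estimation.

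Named genes were members with symbols not starting with LOC or RGD: the 12 with the smallest p of the ratio, the 8 with the highest summed FPKM among those whose leader differs between animals, the 6 with the highest summed FPKM, those with 3 or more transcripts past 2 FPKM, the 6 with the largest SD of the leading share at 5 FPKM or more, and 2 on each side of the threshold. A few genes taken this way go unreported. Other names are marked where they appear or belong to the grouping by role. Alternatives changed the pseudocount, the filters, the scaling and the test, and left out each animal.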

Additional observations from a re-analysis of the deposited data

How the results depend on the processing

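The count of transcript ratios called was 0 in each direction with a pseudocount of 0.5 or 2 FPKM, with a minimum mean of 2 FPKM, with no filter, with no minimum length, and with voom and diffSplice on estimated reads. With diffSplice on log2(FPKM + 1) it was 2 higher and 2 lower: the members Taf13 (-2.5) and Tank (-2.97), and outside the members Stmp1 and Tmub1. Leaving out 1 animal gave 0 to 1 higher and 0 to 1 lower: without vehicle 3, Maged2 (log2 ratio -5.06, limma adjusted p = 0.0281), without melatonin 4, Ssna1 (-10.19, adjusted p = 0.00139), and without melatonin 6, Thumpd3 (6.52, adjusted p = 0.00694). Of 150 alternatives for the 12 members with the smallest p, 148 kept direction and side of the threshold, 2 (Taf13 and Tank with diffSplice) passed it and 0 changed direction.

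For the transcript levels, no filter gave 1 higher and 1 lower, neither a member. Leaving out 1 animal gave 0 to 2 higher and 0 to 1 lower. Among members these were both transcripts of Ssna1 without melatonin 4 (5.05 for NR_130647 and -5.14 for NM_001303617, limma adjusted p = 0.0014) and Thumpd3 without melatonin 6 (4.3, adjusted p = 0.0113). Without vehicle 1 there were 2 higher, neither a member. Median-of-ratios scaling, the other pseudocounts and the 2 FPKM filter called 0. The cause was not tested. The median leading share was 71.9% over transcripts past 2 FPKM alone and 68.0% with a minimum of 5 FPKM, where 93 of 159 genes kept 1 leader. The estimated depth behind the numbers of reads is the best fit within a preset range and is approximate. No paired analysis was possible because the vehicle animals are numbered 1 to 3 and the melatonin animals 4 to 6, so that no number is shared.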
